A study of Mus musculus with 10 samples.

Results

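The genes described here carry glucose into the cell, break it down to pyruvate and lactate, or belong to the transcriptional response to low oxygen. The list held 34 mouse genes, chosen by name with earlier results of these data known. Of them, 31 were measured, out of 19749 genes measured in all. A gene counted as measured when at least 1 probe of the array named it and no other gene, and the brightest such probe stood for it. Gapdh was left out because all 10 of its probes also named other genes, and Gpi1 and Eno1 because no probe in the table named them. The array annotation lists Ero1l under its current symbol, Ero1a. Of the 31 measured genes, 29 exceeded the median of the whole table, 5.27 on the log2 scale, in at least 2 libraries and entered the tests, whereas Pfkp and Eno2 did not.

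RNA of microglia, the resident macrophages of the brain, was measured on 10 single-colour arrays, 5 from mice lacking Trem2 and 5 from wild-type (WT) mice. TREM2 is a lipid-sensing receptor of microglia. Cuprizone, a copper chelator, is toxic to the myelin-forming oligodendrocytes, so that axons lose their myelin. All mice were males, and the strain label of both genotypes was C57BL/6. Every library had the same age label, 8 to 12 weeks, also those titled 12 weeks of cuprizone with 2 weeks of recovery. That label thus cannot be the age at sampling of every library. Age at sampling was not given and may differ between the feeding times. The groups were Trem2-/- mice after cuprizone and recovery, Trem2-/- mice on cuprizone, Trem2-/- controls, WT mice after cuprizone and recovery, WT mice on cuprizone, and WT controls. Cuprizone was given as 0.2% of the diet for 4 or 12 weeks, recovery lasted 2 weeks on normal food, and controls received no cuprizone. Each cuprizone or recovery group had 2 libraries, 1 titled 4 weeks and 1 titled 12 weeks, and each control group had 1 library. The labels say neither how many animals a library held nor which allele of Trem2 was deleted. The p-values below therefore measure only the spread between these libraries, which may be technical. In the fit with 6 group means, that spread lies between a 4-week and a 12-week library. Its SE and p-values thus hold the shift between feeding times and do not measure variation between replicates. For the lone controls the fit took the spread of the other groups. One Trem2-/- library has conflicting labels, 12 weeks on cuprizone in its title and 4 weeks in its time field. The title was followed here, and the calls it changes are given under both labels.

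In glycolysis, glucose enters through transporters, is phosphorylated by hexokinases, is split into 3-carbon sugars, and is turned into pyruvate with a net gain of ATP. Pyruvate is either reduced to lactate and exported through monocarboxylate carriers or enters the mitochondria, an entry that pyruvate dehydrogenase kinases restrain. The transcription factor HIF-1 raises the expression of most of these genes when oxygen is short. With oxygen present, prolyl hydroxylases of the Egln family mark its alpha subunit for destruction, and Egln3 is itself a HIF target. In macrophages, microglia included, activation can raise HIF-1 and glycolysis without a lack of oxygen.

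HIF binds short elements with the core ACGTG or GCGTG. In the 250 bases before the start of transcription, as RefSeq gives them for the mouse assembly GRCm38.p6, at least 1 of these cores was present on either strand in 28 of the 32 listed genes with a promoter sequence (87.5%), against 41.5% of all 27025 genes with one. A gene counted if any of its promoters held a core, and some genes have several promoters. Counted by promoter, the share was 79.55% of 44, against 38.6% of all 32851. Neighbouring cores can share bases, and the palindrome CACGTG holds ACGTG on both strands. ACGTG alone was found in 20 of the 32 genes (62.5%), against 18.5% of all genes. Tpi1, Mif, Eno2 and Gpi1 held no core in these windows. Ndrg1 and Slc2a3 had no entry in the promoter table. The match describes the letters only. The 4 promoters printed here belong to the genes that passed the test between Trem2-/- and WT mice on cuprizone in the fit with feeding time as a block, described below. Capitals mark the cores, read 5′ to 3′ on the strand of the gene, with CACGT and CACGC being the cores on the other strand. They lie on chr12:54203875-54204124 (minus strand, Egln3), chrX:106186850-106187099 (plus, Pgk1), chr4:119108495-119108744 (plus, Slc2a1) and chr10:75860278-75860527 (minus, Mif).
Egln3: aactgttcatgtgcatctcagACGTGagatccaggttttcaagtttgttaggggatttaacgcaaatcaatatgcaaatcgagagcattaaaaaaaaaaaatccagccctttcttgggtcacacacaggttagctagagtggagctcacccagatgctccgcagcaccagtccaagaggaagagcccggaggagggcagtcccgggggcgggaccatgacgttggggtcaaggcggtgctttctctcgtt
Pgk1: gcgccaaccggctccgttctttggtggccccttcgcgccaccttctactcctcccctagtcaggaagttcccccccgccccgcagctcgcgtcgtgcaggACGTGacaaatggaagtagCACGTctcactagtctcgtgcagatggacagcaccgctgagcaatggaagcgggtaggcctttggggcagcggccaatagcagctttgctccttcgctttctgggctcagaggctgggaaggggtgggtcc
Slc2a1: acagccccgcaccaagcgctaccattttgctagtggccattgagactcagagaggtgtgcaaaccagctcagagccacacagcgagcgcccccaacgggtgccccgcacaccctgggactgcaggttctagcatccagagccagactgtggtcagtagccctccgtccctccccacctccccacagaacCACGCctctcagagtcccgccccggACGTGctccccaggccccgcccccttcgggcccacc
Mif: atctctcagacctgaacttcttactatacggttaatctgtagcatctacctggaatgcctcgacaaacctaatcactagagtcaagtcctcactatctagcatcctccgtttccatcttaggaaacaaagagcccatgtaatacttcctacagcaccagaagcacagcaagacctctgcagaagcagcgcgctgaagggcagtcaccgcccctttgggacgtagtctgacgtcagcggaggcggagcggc
The Egln3, Pgk1 and Slc2a1 windows each hold at least 1 core, and the Mif window holds none.

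Trem2, the deleted gene, lay between 7.26 and 7.85 on the log2 scale in the 5 Trem2-/- libraries and between 10.66 and 10.81 in the 5 WT libraries. Median intensities of the 10 arrays lay between 37.6 and 39.3. All 11 measured microglia markers passed the filter, with medians of 10.78 to 11.55 per library. The submitters' sample numbers form 2 runs, the first with both controls and all libraries titled 4 weeks, the second with all libraries titled 12 weeks. Arrays of the same run correlated at 0.983 to 0.991 and arrays of different runs at 0.974 to 0.983 (Pearson's r over probes). Run and feeding time cannot be told apart, since the second run holds no control and no 4-week library. Medians of 12 neutrophil markers were 6.66 to 8.73 in the control and 4-week libraries, against 4.31 to 4.80 in the 12-week libraries, recovery included. Border-associated macrophage markers had medians of 7.81 to 8.11 in the 4-week libraries, recovery included, and of 6.21 to 6.97 in the others. Monocyte markers had library medians between 4.329 and 6.355. Astrocyte, neuron, oligodendrocyte, erythroid, T or NK cell and B cell markers had library medians between 3.13 and 5.36. Single markers of these types were higher. Slc1a3 (astrocyte, 6.783 to 7.971), Cnp and Mbp (oligodendrocyte, 6.774 to 7.613 and 5.89 to 6.707) and Cd79b (B cell, 6.341 to 7.394) exceeded the table's median in all 10 libraries. In such bulk samples, fewer cells of a type and less RNA per cell cannot be told apart.

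**Figure D1:**
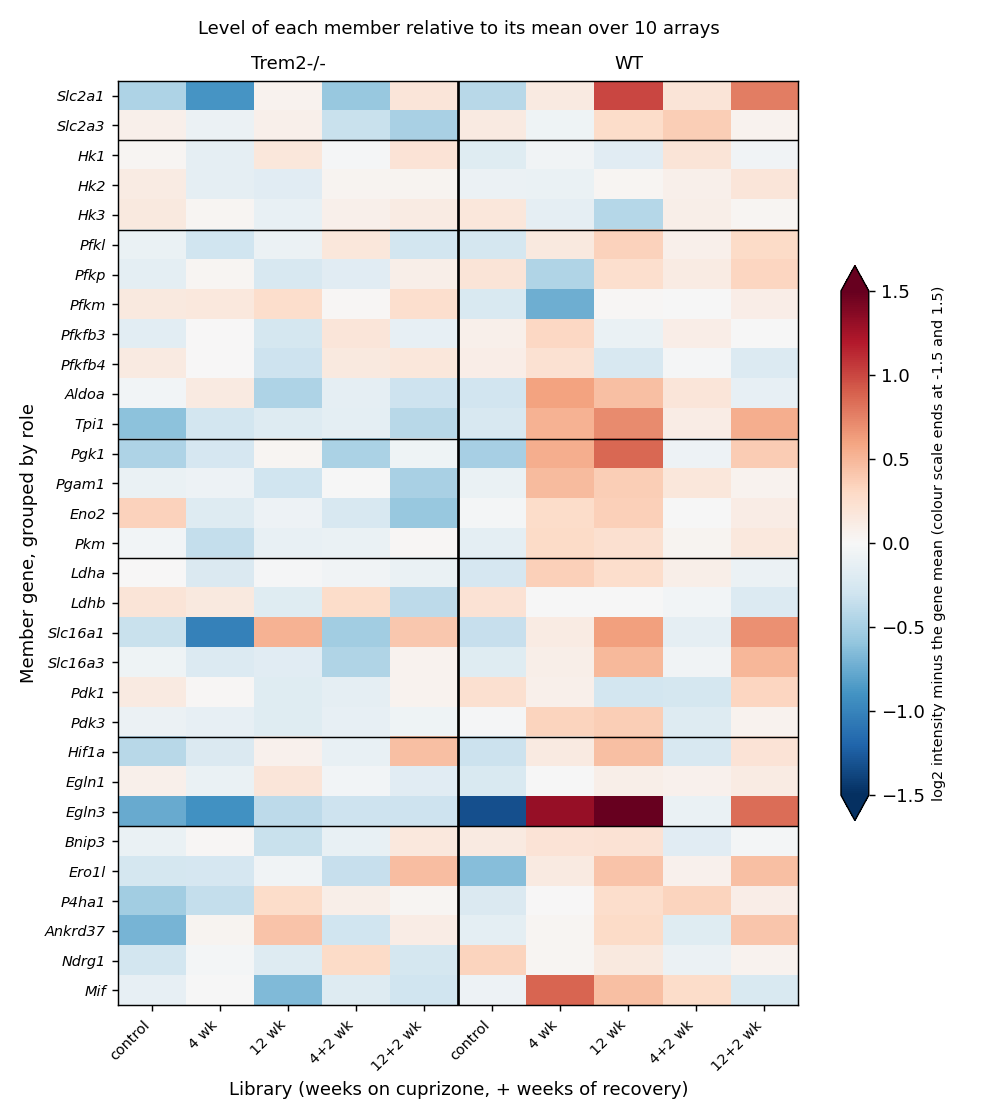
Heat map of the 31 measured genes (rows, grouped by role) in the 10 libraries (columns), with the 5 Trem2-/- libraries on the left and the 5 WT libraries on the right. Colour gives the log2 intensity minus the mean of that gene over the 10 libraries. The WT libraries on cuprizone stand out in Egln3, which reached 6.56 there against at most 4.29 in Trem2-/- libraries.

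On cuprizone, genes of this list lay lower in Trem2-/- than in WT microglia, with Egln3 the only one that passed the test. The comparison asks how levels on cuprizone differ between the genotypes. It does not use the controls, and the responses relative to control are compared further below. Of the 31 measured genes, 26 were lower in Trem2-/- microglia, with a median difference of -0.38 on the log2 scale, against 0.01 over all 19749 genes. At 18 of the 31 genes (58.1%) both Trem2-/- libraries lay below both WT libraries, which held for 13.8% of all genes. Since the list was chosen with earlier results of these data known, such an excess over all genes is a description and not independent support. With limma and Benjamini-Hochberg adjustment over all 10792 genes tested, 1 of the 29 tested genes was called lower (0.324% of all tested genes were), and 0 were called higher. At an unadjusted p under 0.05, 10 of the 29 (34.5%) were lower, against 3.39% of all tested genes, and 0 were higher. Egln3 passed the filter only through 3 WT libraries, and without it 9 of 28 genes remained at that threshold.

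The lower level was seen at both feeding times. The median difference was -0.36 between the 4-week libraries, where 26 genes were lower in Trem2-/-, and -0.35 between the 12-week libraries, where 24 were. Between the control libraries it was 0.00, with 16 genes higher in Trem2-/- and 15 lower. By role, all 4 lower glycolysis genes were lower in Trem2-/- on cuprizone (median -0.55), as were both glucose transporters (median -0.55). Likewise lower were 5 of 6 genes of lactate and pyruvate handling (median -0.45), 3 of 3 of HIF and its hydroxylases (median -0.38), 5 of 6 other hypoxia targets (median -0.29) and 6 of 7 upper glycolysis genes (median -0.24). The hexokinases differed from the other roles in sign, with a median of 0.13 and 2 of 3 higher, though none of them passed the test.

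Levels of each gene are given below as log2 intensity in the order control, 4 weeks, 12 weeks, 4 weeks with recovery, and 12 weeks with recovery, first for the Trem2-/- libraries and then for the WT libraries. Egln3 encodes the prolyl hydroxylase PHD3. It had 3.84, 3.69, 4.21, 4.29 and 4.29 in Trem2-/- libraries, against 3.28, 5.91, 6.56, 4.50 and 5.43 in WT libraries. The 4 fed WT libraries lay above every Trem2-/- library, and the WT control lay below all of them. The Trem2-/- minus WT difference on cuprizone was -2.29 ± 0.35 (log2, SE, n = 2 libraries each), with an adjusted p of 0.0475 (limma). The adjusted p ranged between 0.000711 and 0.331 over the alternatives. It exceeded 0.05 with quantile normalization (0.0597), a stricter filter (0.0532) or an intensity trend (0.0614), and without either WT cuprizone library (0.126 at 4 weeks and 0.312 at 12 weeks left out), either Trem2-/- cuprizone library (0.331 and 0.229), or either Trem2-/- recovery library (0.0865 for each). All 5 Trem2-/- values lay below the table's median, and no detection call came with them, so no fold is given.

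Slc2a1, the glucose transporter GLUT1, had 8.39, 7.97, 8.91, 8.29 and 9.04 in Trem2-/- libraries, against 8.45, 9.0, 9.86, 9.05 and 9.62 in WT libraries. WT was higher in every condition, although the Trem2-/- library of 12 weeks with recovery reached the level of WT at 4 weeks. On cuprizone the difference was -0.99 ± 0.42, or 1.98-fold lower in Trem2-/-, and its adjusted p was 0.9999. The other glucose transporter of the list, Slc2a3 (GLUT3), stayed close to the table's median, between 4.82 and 5.39 in Trem2-/- and between 5.25 and 5.68 in WT. Hexokinases trap glucose as its phosphate. Hk2 had 8.33, 8.07, 8.04, 8.24 and 8.24 in Trem2-/- libraries, against 8.12, 8.11, 8.23, 8.29 and 8.38 in WT libraries. Its ranges overlapped almost entirely, and it differed by -0.12 ± 0.17 on cuprizone. Hk1 and Hk3 differed by 0.13 ± 0.20 and 0.24 ± 0.19, and the Hk1 value rests on 1 probe, since 15 others also name other genes.

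Among the upper glycolysis genes, Tpi1, triosephosphate isomerase, had 7.39, 7.72, 7.80, 7.84 and 7.58 in Trem2-/- libraries, against 7.75, 8.52, 8.70, 8.11 and 8.54 in WT libraries. All 4 fed WT libraries lay above all 5 Trem2-/- libraries. Tpi1 differed by -0.85 ± 0.21 on cuprizone, or 1.80-fold lower in Trem2-/-, with an adjusted p of 0.357. Aldoa, an aldolase, had 10.11, 10.28, 9.69, 10.01 and 9.84 in Trem2-/- libraries, against 9.87, 10.75, 10.60, 10.33 and 10.02 in WT libraries. Both WT cuprizone libraries were above every Trem2-/- library, with a difference of -0.69 ± 0.24 on cuprizone (adjusted p = 0.875). Pfkm, the muscle form of phosphofructokinase, ran the other way. Its levels were 5.66, 5.67, 5.77, 5.54 and 5.77 in Trem2-/- libraries, against 5.29, 4.78, 5.53, 5.51 and 5.62 in WT libraries. Every Trem2-/- library except that of 4 weeks with recovery lay above all WT libraries, the difference on cuprizone was 0.56 ± 0.26, and it did not pass (adjusted p = 0.9999). The liver form Pfkl differed by -0.44 ± 0.22, and Pfkfb3 and Pfkfb4, which make the activator of phosphofructokinase, differed by -0.24 and -0.14.

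Among the lower glycolysis genes, Pgk1 (phosphoglycerate kinase) had 8.08, 8.29, 8.58, 8.07 and 8.49 in Trem2-/- libraries, against 8.04, 9.09, 9.41, 8.46 and 8.93 in WT libraries. The controls lay 0.04 apart, while both WT cuprizone libraries exceeded every Trem2-/- library. Its difference on cuprizone was -0.81 ± 0.25, or 1.76-fold lower in Trem2-/- (adjusted p = 0.677). Pgam1, phosphoglycerate mutase, had 7.74, 7.77, 7.54, 7.83 and 7.35 in Trem2-/- libraries, against 7.74, 8.32, 8.21, 8.02 and 7.89 in WT libraries. The 4 fed WT libraries all lay above the 5 Trem2-/- libraries, and on cuprizone Pgam1 differed by -0.61 ± 0.22 (adjusted p = 0.908). Pkm, pyruvate kinase, differed by -0.50 ± 0.18 (adjusted p = 0.952). Eno2, a second enolase, was below the filter, at 3.97 to 4.89 in Trem2-/- and 4.51 to 4.90 in WT libraries.

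Slc16a1 encodes the lactate carrier MCT1. It had 5.11, 4.43, 5.96, 4.91 and 5.84 in Trem2-/- libraries, against 5.09, 5.56, 6.05, 5.30 and 6.12 in WT libraries. Its genotype gap lay mainly in the 4-week pair, at -1.13, against -0.10 in the 12-week pair. Over both pairs the difference was -0.61 ± 0.53 (adjusted p = 0.9999), and it turned to 0.15 without the Trem2-/- 4-week library. Slc16a3, the lactate exporter MCT4, had 7.17, 7.03, 7.07, 6.78 and 7.29 in Trem2-/- libraries, against 7.05, 7.33, 7.72, 7.19 and 7.73 in WT libraries. Groups on cuprizone did not overlap, with a difference of -0.47 ± 0.27 that did not pass (adjusted p = 0.9999). Ldha, which reduces pyruvate to lactate, and Pdk3, which restrains pyruvate dehydrogenase, differed by -0.43 ± 0.18 and -0.50 ± 0.18, and Ldhb and Pdk1 by -0.02 and 0.01.

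Hif1a encodes the oxygen-regulated alpha subunit of HIF-1. It had 8.48, 8.68, 8.97, 8.80 and 9.36 in Trem2-/- libraries, against 8.58, 9.05, 9.36, 8.67 and 9.11 in WT libraries. Overlap was broad, with the highest Trem2-/- level, after 12 weeks and recovery, close to the highest WT level, on cuprizone for 12 weeks, and the difference on cuprizone was -0.38 ± 0.26 (adjusted p = 0.9999). Egln1, the broadly expressed prolyl hydroxylase PHD2, differed by -0.0044 ± 0.19 on cuprizone. Mif, a cytokine and a known HIF target, had 10.74, 10.86, 10.20, 10.67 and 10.56 in Trem2-/- libraries, against 10.78, 11.74, 11.31, 11.14 and 10.63 in WT libraries. Both WT cuprizone libraries and the WT library of 4 weeks with recovery exceeded all Trem2-/- libraries. Mif differed by -0.998 ± 0.29 on cuprizone, or 2.00-fold lower in Trem2-/- (adjusted p = 0.573). The second Mif probe had 10.61 and 9.69 in the Trem2-/- cuprizone libraries at 4 and 12 weeks, against 11.44 and 10.78 in WT, and the third had 8.54 and 7.12 in Trem2-/-, against 9.33 and 8.43 in WT. Trem2-/- was lower within each feeding time for both probes, but the groups overlapped for the third.

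Ero1l, an oxidase of the endoplasmic reticulum, had 6.56, 6.57, 6.77, 6.47 and 7.29 in Trem2-/- libraries, against 6.18, 6.95, 7.25, 6.88 and 7.28 in WT libraries. On cuprizone both Trem2-/- libraries were below both WT libraries (-0.43 ± 0.29, adjusted p = 0.9999), but after 12 weeks and recovery the genotypes lay 0.01 apart. Ankrd37, an ankyrin repeat gene induced by hypoxia, had 5.46, 6.20, 6.59, 5.86 and 6.26 in Trem2-/- libraries, against 6.01, 6.18, 6.44, 5.98 and 6.57 in WT libraries. It overlapped between genotypes and differed by 0.08 ± 0.27 on cuprizone. The 3 other targets differed by -0.37 (Bnip3, a mitophagy receptor), -0.20 (Ndrg1) and -0.18 (P4ha1, a collagen prolyl hydroxylase), and none passed the test.

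**Figure D2:**
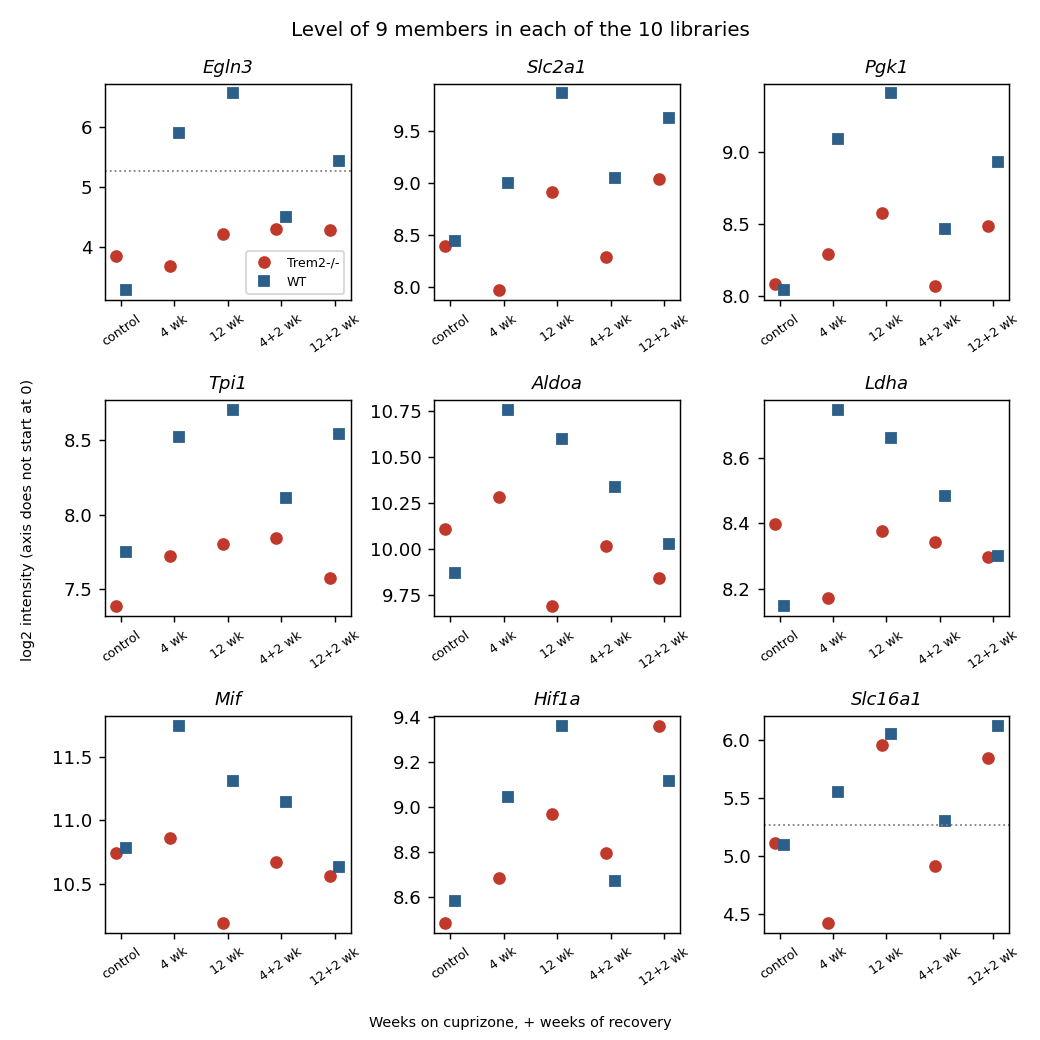
Log2 intensity of 9 genes (panels) in the 5 conditions (horizontal axis), with circles for Trem2-/- and squares for WT libraries, 1 library per point, and dotted lines at the median of the table (5.27) where in range. Pgk1 lay at 8.08 in the Trem2-/- control and 8.04 in the WT control, and at 8.58 in Trem2-/- and 9.41 in WT after 12 weeks of cuprizone.

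In the fit with titled feeding time as a block, which takes the shift between the 4-week and 12-week libraries out of the spread, 4 of the 29 genes passed, all lower in Trem2-/- on cuprizone, against 1.28% of all tested genes. They were Egln3 (adjusted p = 0.000711), Slc2a1 (0.0134), Mif (0.0201) and Pgk1 (0.0283). Egln3 entered the test only through 3 fed WT libraries, with every Trem2-/- library under the median of the table. With the conflicting library counted as 4 weeks in that fit, Egln3 alone passed (-2.02, adjusted p = 0.0160), and Mif, Slc2a1 and Pgk1 differed by -1.17, -0.62 and -0.61. Of 7 endothelial markers 2 passed the filter, and they ran in opposite directions. Flt1, a VEGF receptor, differed by -1.64 ± 0.23 (adjusted p = 0.0290), and it entered the test only through the 4 fed WT libraries, with every Trem2-/- library under the median of the table. Pecam1, an adhesion molecule, differed by 0.68 ± 0.20 and did not pass (adjusted p = 0.593), while Cldn5, Cdh5, Kdr, Tek and Slco1a4 lay below the table's median in all 10 libraries. Summed linear intensity of the 7 endothelial markers was 179.8 and 195.4 in Trem2-/- and 212.7 and 190.8 in WT libraries at 4 and 12 weeks of cuprizone. Of the microglia markers, 10 of 11 were higher in Trem2-/- on cuprizone (median 0.22, 0 called). Monocyte markers had a median of -0.39 (4 of 7 lower, 3 higher, 0 called). They summed to 474.2 and 196.5 in Trem2-/- and 673.5 and 227.8 in WT libraries at 4 and 12 weeks. Neutrophil markers had a median of -0.16 (8 of 12 lower, 4 higher, 0 called). Border macrophage markers had one of 0.08 (4 of 10 lower, 6 higher, 0 called). The part of these markers in the result was not tested.

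**Figure D3:**
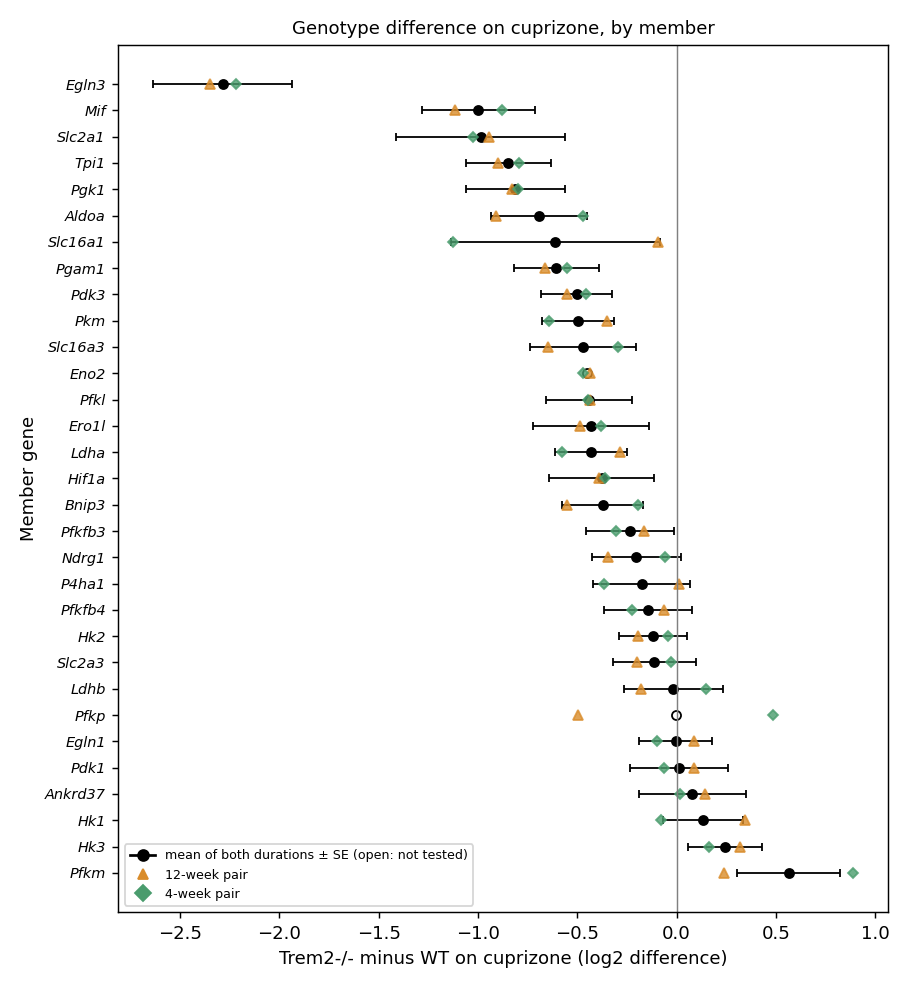
Trem2-/- minus WT on cuprizone for each of the 31 genes (rows), as log2 difference on the horizontal axis. Black points with bars give the fitted mean and its SE, triangles the 12-week pair and diamonds the 4-week pair, and open points genes below the filter. Egln3 lies farthest left, at -2.22 in the 4-week pair and -2.35 in the 12-week pair.

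Set against its own control, cuprizone feeding went with higher levels of 13 of the 31 genes in Trem2-/- microglia and of 23 in WT microglia. These comparisons, and those of recovery with control, share 1 control library per genotype, so they are given side by side and are not independent of each other. In Trem2-/- microglia, cuprizone libraries differed from the control by a median of -0.06, with 13 genes higher and 18 lower. Both cuprizone libraries exceeded the control at 8 of 31 genes (25.8%), against 32% of all genes. No gene was called (0 of 29, and 0% of all tested genes). Ankrd37 alone reached an unadjusted p under 0.05, at 0.93 ± 0.33 (adjusted p = 0.9994), against 0.927% of all tested genes in either direction. Egln3, Slc2a1, Pgk1 and Tpi1 differed from the control by 0.11 ± 0.43, 0.05 ± 0.52, 0.35 ± 0.31 and 0.38 ± 0.26. Aldoa and Mif lay below it, by -0.12 ± 0.30 and -0.21 ± 0.35.

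In WT microglia, 23 of 31 genes were higher on cuprizone, with a median of 0.35, against -0.0045 over all genes. At 21 of the 31 (67.7%) both WT cuprizone libraries lay above the control, against 30.7% of all genes. No gene of the list passed the test in the fit without the block (0 of 29, against 0.148% of all tested genes called higher). At an unadjusted p under 0.05, 6 of 29 were higher (3.22% of all tested genes were), of which 5 remained without Egln3.

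Those 6 were Egln3 (2.96 ± 0.43, adjusted p = 0.0581), Pgk1 (1.21 ± 0.31, adjusted p = 0.475), Ero1l (0.93 ± 0.36), Tpi1 (0.86 ± 0.26), Aldoa (0.81 ± 0.30) and Ldha (0.56 ± 0.22). The WT control level of Egln3, 3.28, lay below the table's median with no detection call, so no fold is given. Slc2a1, Mif, Slc16a1 and Hif1a followed with 0.98 ± 0.52, 0.74 ± 0.35, 0.71 ± 0.65 and 0.62 ± 0.32 and did not reach that threshold. Lower glycolysis (4 of 4, median 0.46) and HIF and its hydroxylases (3 of 3, median 0.62) were higher throughout. The adjusted p of Egln3 ranged between 0.00223 and 0.276 over the alternatives and was 0.0316 with either WT recovery library left out. With feeding time as a block, Egln3 rose by 2.69 (adjusted p = 0.00223) and Pgk1 rose by 1.02 (adjusted p = 0.0408), where 0.945% of all tested genes were called higher. With the conflicting library counted as 4 weeks, Egln3 alone was called (adjusted p = 0.0150).

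Markers of several cell types moved between these libraries as well. On cuprizone relative to control in WT, 11 of 11 microglia markers were lower (median -0.43) and 11 of 12 neutrophil markers were lower (median -1.26), with 0 called in either list. The neutrophil fall lay mainly in the 12-week library. Neutrophil markers had medians of 7.303 and 4.545 in WT cuprizone libraries at 4 and 12 weeks, against 7.015 in the WT control. They summed to 6399 and 285.6, against 7331 in the WT control. Border macrophage markers summed to 4914 and 2096 in WT cuprizone libraries at 4 and 12 weeks, against 2336 in the WT control. Monocyte markers summed to 673.5 and 227.8 in WT cuprizone libraries, against 416.7 in the WT control. In Trem2-/- cuprizone libraries at 4 and 12 weeks, border macrophage markers summed to 4566 and 2298, against 1776 in the Trem2-/- control. Neutrophil markers summed to 4973 and 408.8 in these libraries, against 6911 in that control. Monocyte markers there summed to 474.2 and 196.5, against 398. Of the 31 genes of the list, 23 were above the WT control at 4 weeks (median 0.27) and 25 at 12 weeks (median 0.39). The part of these markers in the result was not tested.

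The difference between the genotypes in the cuprizone response was tested itself, as an interaction. No gene of the list was called (0 of 29, against 0.00927% of all tested genes). The median interaction was -0.32, and it was -0.39 at 4 weeks and -0.32 at 12 weeks. At 22 of 31 genes the interaction was negative, meaning that the signed change from control was lower in Trem2-/- than in WT. A negative value need not be a smaller change. Egln3 alone was below an unadjusted p of 0.05 (-2.85 ± 0.61, adjusted p = 0.857), against 1.17% of all tested genes in that direction. Mif, Aldoa, Slc2a1 and Pgk1 had interactions of -0.96 ± 0.50, -0.93 ± 0.42, -0.93 ± 0.74 and -0.85 ± 0.43. With feeding time as a block the interaction of Egln3 passed (adjusted p = 0.0400), but not with the conflicting library counted as 4 weeks in that fit (0.273), and its adjusted p reached 0.9999 among the other alternatives. At 5 of 31 genes (16.1%) both Trem2-/- cuprizone libraries lay below and both WT cuprizone libraries above their own control, against 6.82% of all genes.

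After recovery on normal food most genes were again lower in Trem2-/- microglia, with no call. Of the 31 genes, 23 were lower in Trem2-/- than in WT microglia, with a median of -0.20, and at 12 (38.7%) the groups did not overlap in that direction, against 13.4% of all genes. None passed the test (0 of 29, against 0.0278% of all tested genes called lower). Slc2a3 (-0.62 ± 0.21) and Tpi1 (-0.61 ± 0.21) were lower at an unadjusted p under 0.05, against 1.08% of all tested genes. Egln3 differed by -0.68 ± 0.35, Slc2a1 by -0.67 ± 0.42, Pgk1 by -0.42 ± 0.25 and Mif by -0.27 ± 0.29. The median difference was -0.15 in the 4-week pair and -0.19 in the 12-week pair. In this comparison all 12 neutrophil markers were lower in Trem2-/- (median -0.72, 0 called), and they summed to 4752 in Trem2-/- and 14290 in WT at 4 weeks with recovery, and to 253.8 in Trem2-/- and 251.2 in WT at 12 weeks with recovery. Their part in the result was not tested.

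Recovery libraries were next set against cuprizone libraries of the same genotype. In Trem2-/- microglia the median step was 0.07, and 0 of 29 genes were called (0% of all tested genes) or reached an unadjusted p under 0.05 (0.593%). WT recovery libraries were lower than cuprizone libraries at both feeding times at 15 of 31 genes (48.4%), against 26.2% of all genes, with a median of -0.09 over the list. No gene was called (0 of 29, and 0% of all tested genes). At an unadjusted p under 0.05 Egln3 (-1.27 ± 0.35) and Pdk3 (-0.42 ± 0.18) were lower, against 2.18% of all tested genes. Mif, Pgk1 and Aldoa were lower by amounts that did not reach that threshold, with differences of -0.64 ± 0.29, -0.55 ± 0.25 and -0.50 ± 0.24. The difference between the genotypes in this step had a median of 0.23, 0 genes called (0%), and Egln3 alone at an unadjusted p under 0.05, at 1.60 ± 0.49 (1.24% of all tested genes were higher).

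Recovery libraries were also set against the controls. In Trem2-/- microglia the median difference from the control was 0.02, with 0 of 29 genes called (0%) and 0 at an unadjusted p under 0.05 (1.4%). In WT, 23 of 31 genes were higher after recovery than in the control, with a median of 0.25, and 0 of 29 were called (0% of all tested genes). Egln3 (1.69 ± 0.43) and Ero1l (0.90 ± 0.36) were higher at an unadjusted p under 0.05, against 1.58% of all tested genes.

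Over all 5 conditions at once, with the condition as a block, 26 of 31 genes were lower in Trem2-/- than in WT (median -0.19), and 0 of 29 were called, against 0.185% of all tested genes called lower. At an unadjusted p under 0.05, 10 of 29 were lower (6.62% of all tested genes were) and Pfkm was higher (0.34 ± 0.13). Mif, Slc2a1, Slc2a3 and Tpi1 were lower in 5 of 5 conditions, which is 12.9% of the 31 genes, against 4.69% of all genes. Tpi1 differed by -0.66 ± 0.12 (adjusted p = 0.0759) and Slc2a1 by -0.67 ± 0.14 (adjusted p = 0.102), and both passed with an intensity trend (0.0233 and 0.0284). Their adjusted p ranged up to 0.311 for Tpi1 and 0.376 for Slc2a1 over the alternatives.

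Between feeding times, the lactate carrier Slc16a1 and the glucose transporter Slc2a1 rose most among the called genes of the list, by 0.94 ± 0.16 (adjusted p = 0.00442) and 0.78 ± 0.11 (adjusted p = 0.00207) in the 12-week libraries relative to the 4-week libraries. This comparison took the 8 fed libraries in 4 pairs, each of 1 genotype and phase, with the pair as a block. Egln3 (0.52 ± 0.15), Ero1l (0.43 ± 0.13), Ankrd37 (0.41 ± 0.11), Hif1a (0.40 ± 0.11) and Pgk1 (0.37 ± 0.11) also rose, with adjusted p between 0.0277 and 0.0429. That made 7 of 29 genes called higher (24.1%), against 8.22% of all tested genes. Mif fell by 0.43 ± 0.12 (adjusted p = 0.0355), 1 of 29 genes (3.45%), against 12.1% of all tested genes.

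Direction across the 4 pairs was alike for 12 genes. Ankrd37, Ero1l, Hif1a, Pfkm, Pgk1, Slc16a1, Slc16a3 and Slc2a1 were higher at 12 weeks in 4 of 4 (25.8% of the 31 genes, against 17.9% of all genes). Aldoa, Mif, Pfkfb3 and Pgam1 were lower in 4 of 4 (12.9%, against 15.8%). Of these 4, Mif alone passed the test, and Aldoa and Pgam1 differed by -0.31 ± 0.12 and -0.24 ± 0.11.

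How many of these calls stand depends on the feeding time given to 1 library. With the conflicting Trem2-/- library counted as 4 weeks, 0 of the 29 genes were called, and the adjusted p of the 8 genes lay between 0.0941 and 0.277. Slc16a1 and Slc2a1 stayed called whichever single library was left out. The number of genes of the list called was 2 without any 1 WT library and 4 without any 1 Trem2-/- library. In the same contrast all 9 tested neutrophil markers were called lower, as were 12.1% of all tested genes, the median over the 12 measured being -2.63, and S100a8 lay between 3.01 and 6.59 in the 12-week libraries, against 10.86 to 12.30 in the 4-week and control libraries. Of the border macrophage, monocyte and microglia markers, 9 of 10, 5 of 5 and 4 of 11 tested were called lower at 12 weeks. With the conflicting library counted as 4 weeks, 7 neutrophil, 6 border macrophage, 2 monocyte and 0 microglia markers were called lower. Their part in the result was not tested, and run and feeding time cannot be told apart.

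**Figure D4:**
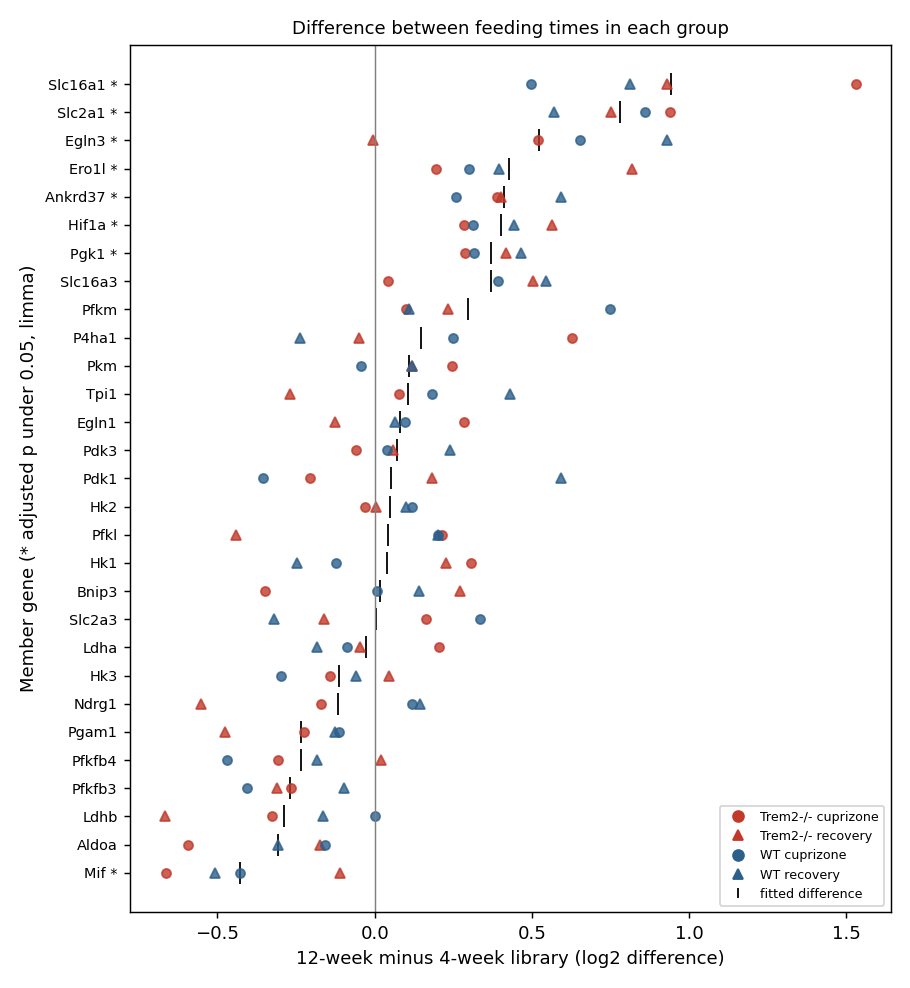
Log2 difference, 12 minus 4 weeks of cuprizone feeding, of the 29 tested genes in 4 pairs (Trem2-/- and WT, each on cuprizone and after recovery). Vertical ticks give the fitted difference, circles the cuprizone and triangles the recovery pairs, and an asterisk an adjusted p under 0.05. Slc16a1 and Slc2a1 have fitted differences of 0.94 and 0.78, and Mif one of -0.43.

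Neighbouring pathways were examined through 6 further gene lists. Other hypoxia-induced genes came closest to the genes above. Of 29 measured, 21 (72.41%) were lower in Trem2-/- on cuprizone (median -0.13), against 47.65% of all genes. Of 21 tested, 2 passed, both lower, against 0.324% of all tested genes called lower. Cxcr4, a chemokine receptor, had 6.92, 7.87, 7.28, 7.40 and 7.51 in Trem2-/- libraries, against 7.56, 9.70, 10.56, 8.57 and 9.37 in WT libraries. Each fed WT library exceeded every Trem2-/- library, and the Trem2-/- minus WT difference on cuprizone was -2.55 ± 0.36 (adjusted p = 0.0329). Vegfa, the vascular growth factor, had 5.69, 5.76, 5.71, 5.79 and 5.96 in Trem2-/- libraries, against 6.08, 7.05, 7.56, 6.37 and 6.69 in WT libraries. All 5 WT libraries lay above all 5 Trem2-/- libraries, and the Trem2-/- minus WT difference on cuprizone was -1.56 ± 0.23 (adjusted p = 0.0364). Lox, an oxidase that cross-links collagen, differed by -1.99 ± 0.33 and did not pass (adjusted p = 0.0676). It entered the test only through 3 fed WT libraries, with the WT control and all Trem2-/- libraries below the table's median. In Trem2-/- on cuprizone 21 of 29 genes of this list were above the control (median 0.13, 0 called, and 0% of all tested genes). In WT 23 of 29 were (median 0.33, 0 called, against 0.148% of all tested genes called higher), led by Cxcr4 (2.57 ± 0.45) and Lox (2.13 ± 0.41). Between feeding times 5 of 21 tested genes were called higher at 12 weeks, against 8.22% of all tested genes, and 0 lower. They were Edn1 (1.89), Tfrc (1.16), Higd1a (0.99), Hilpda (0.98) and Plin2 (0.40), of which Edn1 alone was called with the conflicting library counted as 4 weeks.

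The other 5 lists had no gene called between the genotypes on cuprizone or between WT cuprizone and control. Other glycolysis genes, mainly isoforms and side enzymes, had a median of -0.02 between the genotypes on cuprizone (19 measured) and -0.04 in WT on cuprizone relative to control. Their widest differences in WT on cuprizone were in Aldoc (-1.31 ± 0.77) and the fructose transporter Slc2a5 (-0.98 ± 0.34). The pentose phosphate pathway (7 measured), which makes NADPH and ribose, had medians of -0.06 and 0.14 in these comparisons, with Rpia (0.49) and H6pd (-0.27) widest in the second of them. For pyruvate entry into mitochondria (12 measured) the medians were -0.02 and -0.01, with Pdpr (-0.82) and Dld (0.43) widest. HIF regulators (12 measured) had medians of 0.06 and 0.16, with Rbx1 (0.54) and Cited2 (0.45) widest. The mTORC1 pathway and Myc (13 measured), which govern growth, had medians of 0.15 and -0.26, with Sesn1 (-0.49) and Myc (-0.44) widest.

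Between feeding times these 5 lists held called genes in both directions, against 8.22% of all tested genes called higher and 12.1% lower. At 12 relative to 4 weeks 4 of 14 other glycolysis genes fell, namely Aldoc (-1.08), Pgm1 (-0.44), Slc2a5 (-0.42) and Adpgk (-0.39). Of 7 pentose phosphate genes, Pgd (-0.99) and Tkt (-0.63) fell and Rpia (0.77) rose. Of 10 genes of pyruvate entry, Pdpr fell by 0.53. Of 10 HIF regulators, Rbx1 (0.67), Cited2 (0.62) and Eloc (0.61) rose. Of 13 genes of the mTORC1 list, Tsc1 (-0.49), Rptor (-0.49) and Sesn1 (-0.42) fell and Sesn2 (0.64) rose. With the conflicting library counted as 4 weeks, Pgd alone was called among these 5 lists.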

How the data were processed

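Per the labels' protocols, biotinylated cRNA was made from 2 ng of total RNA of sorted microglia. Every probe has 1 deposited linear intensity per array. How the authors corrected, summarized and normalized these intensities, and the markers of the sort, were not given in the sources used here. Log2 was taken with no further scaling. Of 24567 probes, 21259 named 1 gene, 1274 named several and 2034 were not listed, and for 888 genes with several probes the brightest was kept. Genes above the table's median (38.5 as linear intensity, 5.27 on the log2 scale) in at least 2 arrays were tested. Entrez identifiers were matched to RefSeq (GRCm38.p6), which updated 0 symbols. Array number limits the precision.

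limma 3.58.1 in R 4.3.3 was fitted to all 10 arrays with 6 group means, to genotype with 5 conditions as a block, and to feeding time over the fed arrays, with Benjamini-Hochberg adjustment over 10792 genes. The fits were tested on simulated data. Alternatives were median or quantile scaling, no or a stricter filter (60th percentile), the mean over probes, an intensity trend, feeding time as a block, the conflicting library as 4 weeks, and each array left out. Values in every library were given for genes called in any comparison, the 12 with the widest range, and the brightest of any role not yet covered. Ldha, Pkm and Pdk3 were singled out after their values were seen. Genes of the further lists were named where called or among the 2 with the largest WT cuprizone difference. The members and lists were chosen with earlier results of these data known.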

Additional observations from a re-analysis of the deposited data

Results flagged for a closer look

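In 5 tested genes both Trem2-/- cuprizone libraries differed from their control in one direction and both WT cuprizone libraries from theirs in the other. They were picked by this pattern. For 4 of them, Trem2-/- lay below and WT above. With Eno2, which was not tested, that direction held at 5 of the 31 measured genes (16.1%), against 6.82% of all genes. The share of all genes in the opposite direction was not computed. Ldha differed from the control by -0.23 at 4 weeks and -0.02 at 12 weeks in Trem2-/-, against 0.60 and 0.51 in WT, an interaction of -0.68. Pkm differed by -0.32 and -0.07 in Trem2-/-, against 0.43 and 0.38 in WT, an interaction of -0.60. For Slc16a3 the values were -0.14 and -0.10 in Trem2-/-, against 0.27 and 0.67 in WT, an interaction of -0.59. Pdk3 had -0.04 and -0.09 in Trem2-/-, against 0.35 and 0.39 in WT, an interaction of -0.44. Ndrg1 ran the other way, with 0.25 and 0.08 in Trem2-/-, against -0.30 and -0.18 in WT, and an interaction of 0.40. None of the 5 interactions passed limma's test (adjusted p = 0.9999 for each), and in every case the 2 libraries of a genotype share its 1 control.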

How the results depend on the processing

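The main limits are 2 libraries per fed group, 1 control per genotype, feeding time confounded with run, and 1 library with conflicting labels. The count of genes of the list called between genotypes on cuprizone was 1 and became 0 with quantile scaling, a stricter filter or an intensity trend, 4 with feeding time as a block, and 0 to 1 with a library left out. Over all genes that comparison gave 36 calls, and 153 with the block or 55 with the block and the conflicting library as 4 weeks. For WT cuprizone against control the list gave 0, then 2 and 1 with those blocks (all genes 16, 105 and 37), and 0 to 1 with a library left out. The block gave 1 call in the genotype difference in the cuprizone response (all genes 9, against 1), and the trend 2 calls over 5 conditions. For 12 against 4 weeks the list's 8 calls became 0 with the conflicting library as 4 weeks (all genes 186, against 2194), and 2 to 4 with a library left out. The cause of these shifts was not tested.

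The list's median between genotypes on cuprizone was -0.32 with quantile scaling, -0.43 with probe means, -0.25 with the block and the conflicting library as 4 weeks, and -0.47 to -0.33 with a library left out. With a library left out it was -0.21 to -0.11 between genotypes after recovery, -0.44 to -0.32 for the genotype difference in the response, and 0.0622 to 0.28 for that in the recovery step. In WT, recovery against cuprizone ranged over -0.22 to -0.0504 and recovery against control over 0.16 to 0.25, the second being 0.19 with the block and 0.18 with the conflicting library as 4 weeks. In Trem2-/-, cuprizone against control was -0.0358 with probe means and -0.0644 to -0.0209 with a library left out. Recovery against cuprizone was 0.0834 with quantile scaling, 0.0487 with the block and the conflicting library as 4 weeks, and 0.0255 to 0.0741 with a library left out, and recovery against control was -0.0539 to 0.0333. For 12 against 4 weeks the median was 0.12 with quantile scaling and 0.0307 to 0.11 with a library left out. Of single genes, Slc16a1 between genotypes on cuprizone turned to 0.15 without the Trem2-/- 4-week library and was -1.38 without the Trem2-/- 12-week library, its range with a library left out.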
